A study of Chlamydomonas reinhardtii with 21 samples.

Results

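Of the genes whose transcripts were measured in Chlamydomonas reinhardtii, 67 were raised in both srta mutants and lower in both strains that had received the SRTA wild-type allele. They were chosen by 4 differences of mean log2(FPKM + 0.1), where FPKM is a fragment count scaled by the length of the gene and by library size. UVM4 minus the control strain Elow47 and UVM11 minus Elow47 both had to be above 1, and UVM11-C1 minus UVM11 and UVM11-C9 minus UVM11 both had to be below 0. Of 17741 gene models, 15425 had a mean above 0.1 FPKM and were tested, so that the 67 members made up 0.434% of the tested genes. A further 55 genes were raised in both mutants but were not lower in both complemented strains. Because these 4 differences chose the members, they are given below as a description, with no test, and the tests are on 3 comparisons that were not part of the rule. These use the same cultures, so that the share of members called in them is a share among genes selected on these values.

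SRTA (Cre10.g462200) encodes a sirtuin, a member of the Sir2 family of protein deacetylases that use NAD as a cosubstrate and act on histones among other proteins. Acetylated histones go with active promoters and deacetylated histones with silent chromatin. In Chlamydomonas, transgenes introduced into the nuclear genome are often silenced, and UVM4 and UVM11 are strains from a UV mutagenesis that express transgenes strongly.

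RNAseq was performed on 21 liquid cultures in 2 batches, all grown in mid-log phase with acetate in the light and with no treatment. Batch 1 held 4 cultures each of UVM4, with the allele srta-2, of UVM11, with the allele srta-1, and of Elow47, the parental strain with wild-type SRTA. Batch 2 held 3 cultures each of UVM11-C1, UVM11-C9 and UVM11. UVM11-C1 and UVM11-C9 are single transformants of UVM11 that carry a SRTA cDNA under the native promoter of the gene and a hygromycin resistance gene. Both mutants carry other changes from the mutagenesis beside the point mutation in SRTA. Elow47 was not in batch 2, so that a difference between a complemented strain and Elow47 cannot be told apart from the batch. The design describes them as separate cultures, so that the p-values measure the spread between cultures of a strain.

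The deposited FPKM values summed to between 542464 and 617687 per library, and the depth in reads is not given. Relative depth, read from the steps between low values, ranged from 0.822 to 1.25 between libraries. SRTA itself averaged 3.50 ± 0.32 FPKM in UVM4, 3.51 ± 0.23 FPKM in UVM11 of batch 1 and 3.45 ± 0.57 FPKM in Elow47 (SD, n = 4 each), and since both alleles are point mutations this level does not check them. Its batch 2 averages were 5.19 ± 0.40 FPKM in UVM11-C1, 3.48 ± 0.17 FPKM in UVM11-C9 and 2.80 ± 0.14 FPKM in UVM11 (SD, n = 3 each). The excess over UVM11 was 0.87 ± 0.11 on the log2 scale in UVM11-C1 (SE, limma, Benjamini-Hochberg adjusted p = 1.82e-05) and 0.30 ± 0.11 in UVM11-C9 (adjusted p = 0.0304).

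The members were genes of very low abundance. The median of their means over all cultures was 0.725 FPKM, with a range of 0.124 to 39.4 FPKM, against 5.61 FPKM over all tested genes. A mean of at most 1 FPKM was found for 40 members (59.7%), against 12.4% of the tested genes. The 55 other genes raised in both mutants were low as well, so that low abundance is not particular to the members. Their median was 1.01 FPKM over all cultures and 0.0638 FPKM in Elow47, and 49.1% had a mean of at most 1 FPKM. In batch 1 the median member had 0.778 FPKM in UVM4, 0.840 FPKM in UVM11 and 0.0871 FPKM in Elow47. Between 18 and 20 members were listed at 0 in each culture of Elow47, and at most 1 in any culture of either mutant. In batch 2 the median member had 0.300 FPKM in UVM11-C1, 0.238 FPKM in UVM11-C9 and 1.44 FPKM in UVM11. Between 7 and 10 members were listed at 0 in each culture of UVM11-C1, between 4 and 9 in each of UVM11-C9, and at most 1 in each of UVM11.

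**Figure D1:**
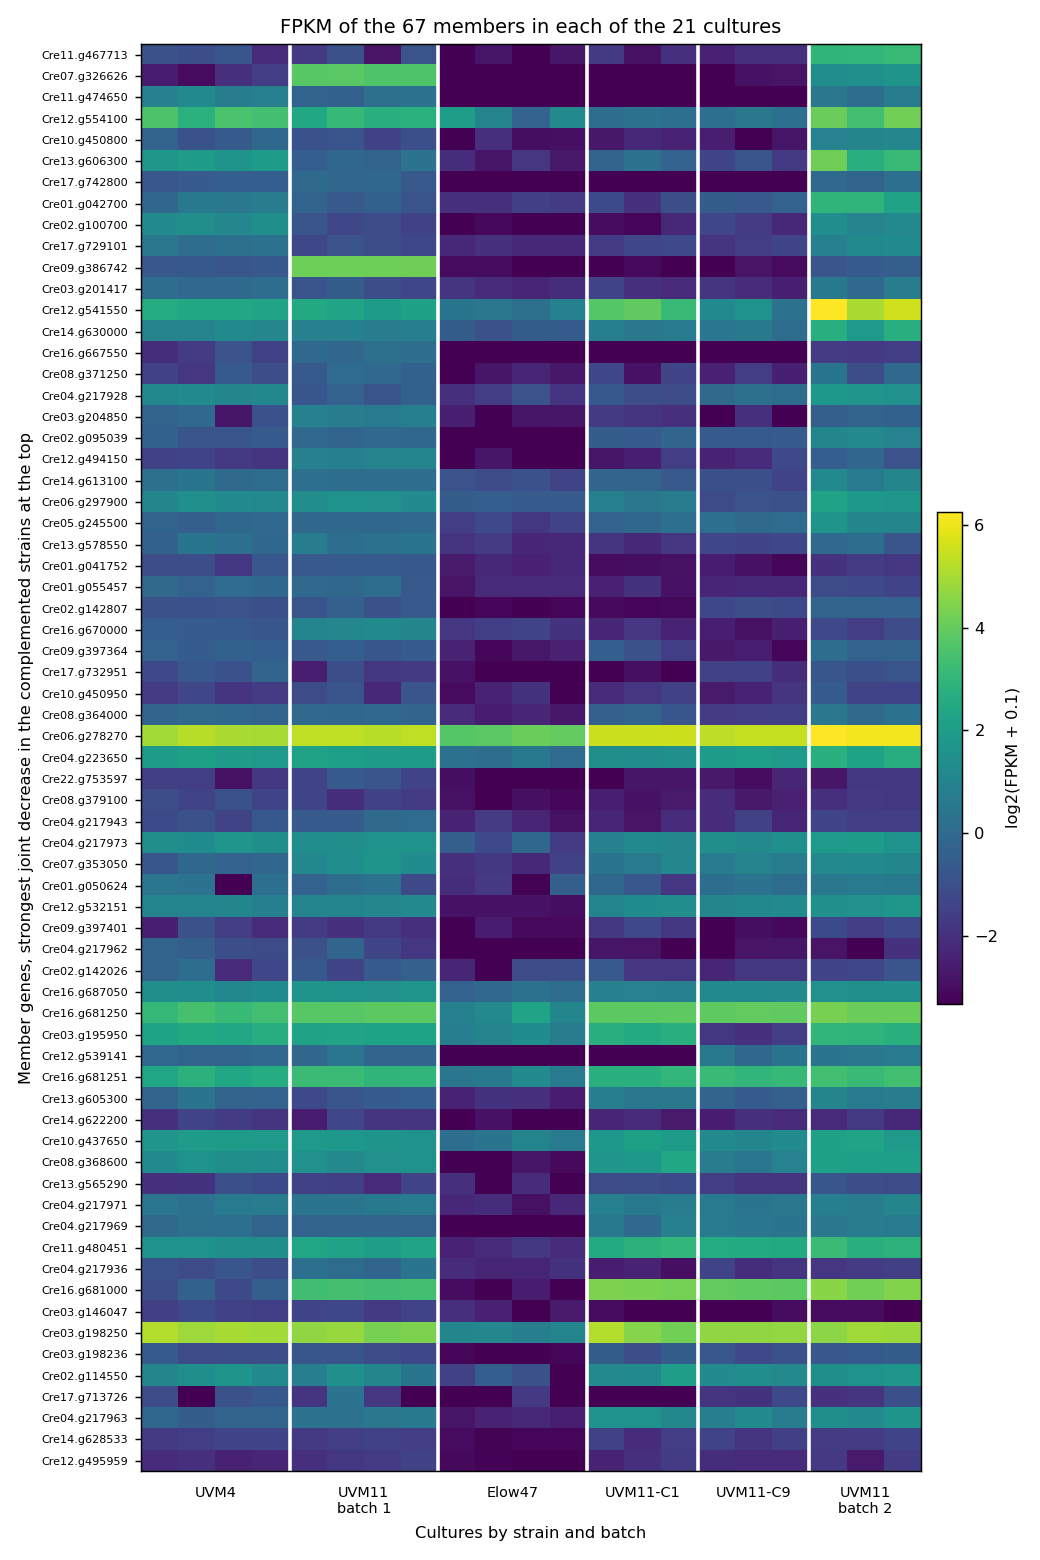
Heat map of log2(FPKM + 0.1) for the 67 members (rows) in each of the 21 cultures (columns, grouped by strain and batch, batch 1 left of batch 2). The members whose smaller decrease in the 2 complemented strains is largest are at the top. The Elow47 columns are the darkest of batch 1 in nearly every row, with Cre06.g278270 the brightest of them, and the UVM11-C1 and UVM11-C9 columns are dark in the upper rows and in the lower rows mostly have the colour of UVM11 of batch 2.

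The fragments behind these values were few. For 61 members the values of all cultures were whole multiples of 1 step, within 0.05 of a step, once scaled by the relative depth. If a step is taken as 1 fragment, the median member had 172 fragments summed over the UVM4 cultures, 229 over UVM11 of batch 1 and 19 over Elow47, and 17 members had 0 to 3 fragments in the 4 Elow47 cultures together. In batch 2 the median sums were 72 fragments for UVM11-C1, 75 for UVM11-C9 and 226 for UVM11. The pseudocount of 0.1 FPKM is of the size of the Elow47 values, so that the differences of most members depend on it. With a pseudocount of 1 the same rule found 14 genes, all of them among the 67, and with 0.01 it found 102, of which 66 were members.

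The median difference over the members was 1.89 on the log2 scale for UVM4 minus Elow47 and 2.11 for UVM11 of batch 1 minus Elow47, against medians within 0.01 of 0 over all tested genes. The 8 members listed at 0 in every Elow47 culture enter these medians through the pseudocount, and without them the medians were 1.84 and 1.81. The other members depend on it too. Under other pseudocounts, filters and quantile normalization the medians ranged from 0.65 to 3.07 for UVM4 and from 0.77 to 3.18 for UVM11. A gene is here called where its absolute log2 fold change was above 1 and its adjusted p from limma below 0.01. In UVM4 against Elow47, 61 members were called higher, where 0.985% of all tested genes were, and in UVM11 against Elow47 62 were, where 1.26% were. The cultures of UVM4 all lay above those of Elow47 in 63 members, where they did in 7.44% of all tested genes, and the cultures of UVM11 in 61, where they did in 6.94%. The rule asked for these differences, so that nothing can be read from these counts.

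In the complemented strains the rule asked only for a difference below 0, which 49.8% of all tested genes had for UVM11-C1 and 50.8% for UVM11-C9, and 30.2% for both. The median difference over the members was -0.94 in UVM11-C1 minus UVM11 of batch 2 and -1.02 in UVM11-C9 minus UVM11 of batch 2. Without the members listed at 0 throughout a complemented strain, 6 of them for UVM11-C1 and 3 for UVM11-C9, the medians were -0.83 and -0.89. Under other pseudocounts, filters and quantile normalization they ranged from -1.43 to -0.34 for UVM11-C1 and from -1.26 to -0.36 for UVM11-C9. In UVM11-C1 28 members were called lower, where 0.908% of all tested genes were, and in UVM11-C9 33 were, where 2.18% were. Both calls were made in 24 members, where 0.454% of the tested genes had both, and neither call in 30.

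The members therefore fell into classes by the size of their decrease. In 26 members both differences were below -1, in 14 only 1 of them was, and in 27 neither was. In 15 of the 27, both were between 0 and -0.5. The 26 had a median of 0.181 FPKM in UVM11-C1, 0.198 FPKM in UVM11-C9 and 1.97 FPKM in UVM11 of batch 2. The 27 had a median of 1.56 FPKM in UVM11-C1, 1.31 FPKM in UVM11-C9 and 1.72 FPKM in UVM11 of batch 2. In UVM4 minus Elow47 and in UVM11 of batch 1 minus Elow47, the median differences were 2.09 and 2.04 for the 26 and 1.80 and 2.26 for the 27. A list of 18 genes that the study had picked for restored expression lay wholly within the 26. That list was chosen on these same cultures and is not independent evidence.

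**Figure D2:**
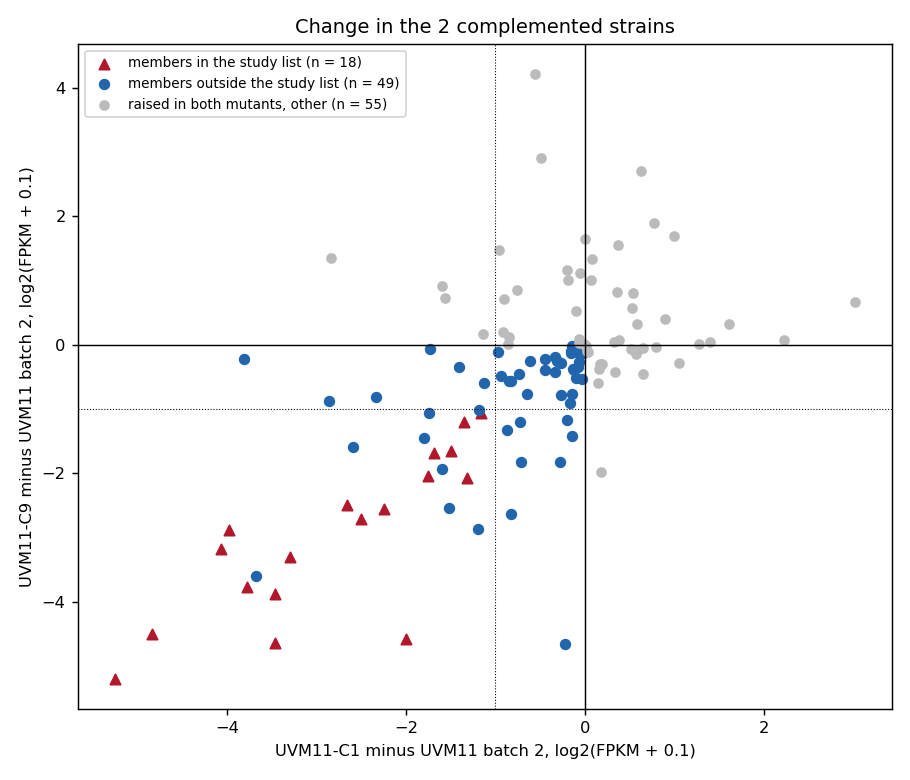
Difference on the log2(FPKM + 0.1) scale of UVM11-C1 (x axis) and UVM11-C9 (y axis) from UVM11 of batch 2 for the 18 members in the list of the study (triangles), the 49 other members (blue points) and the 55 other genes raised in both mutants (grey points). Dotted lines are at -1. All 18 triangles lie below -1 on both axes, whereas many blue points crowd near 0, and both axes share the UVM11 cultures.

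A decrease to 0 was found in 3 members, which were listed at 0 in every culture of UVM11-C1, UVM11-C9 and Elow47. Cre11.g474650, on chromosome 11 from 2375651 to 2377262, had 1.70, 2.27, 1.54 and 1.71 FPKM in UVM4 and 0.735, 0.681, 1.06 and 1.14 FPKM in the UVM11 cultures of batch 1. In UVM11 of batch 2 it had 1.28, 1.00 and 1.57 FPKM. All 11 mutant cultures were thus well above 0 and all 10 cultures with a wild-type allele were at 0.

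Cre17.g742800 had 0.501, 0.574, 0.621 and 0.623 FPKM in UVM4 and 0.899, 0.807, 0.825 and 0.537 FPKM in the UVM11 cultures of batch 1. Its values in UVM11 of batch 2 were 0.879, 0.759 and 1.04 FPKM. The 3 mutant groups were close to each other in this gene. Cre16.g667550 had 0.136, 0.217, 0.441 and 0.267 FPKM in UVM4 and 0.862, 0.798, 1.08 and 0.974 FPKM in the UVM11 cultures of batch 1. In UVM11 of batch 2 it had 0.228, 0.205 and 0.230 FPKM, at the level of UVM4 and below every UVM11 culture of batch 1.

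In the gene table of the study a function stands beside 5 members, all from its list. Cre13.g606300 encodes a 2′-5′ oligoadenylate synthase, an enzyme that in mammals makes a signalling oligonucleotide when it meets double-stranded RNA. It had 3.30, 3.71, 3.05 and 3.84 FPKM in UVM4, 0.619, 0.852, 0.725 and 1.15 FPKM in the UVM11 cultures of batch 1, and 0.139, 0.0455, 0.184 and 0.0583 FPKM in Elow47. The values of batch 2 were 0.719, 1.11 and 0.710 FPKM in the UVM11-C1 cultures, 0.298, 0.463 and 0.211 FPKM in UVM11-C9, and 17.9, 6.52 and 8.88 FPKM in UVM11. No 2 groups overlapped except UVM11-C1 with UVM11 of batch 1, and UVM11 of batch 2 was the highest.

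Cre17.g729101 encodes a pherophorin, a family known from Volvox as glycoproteins of the extracellular matrix. It averaged 1.11 FPKM in UVM4 (0.969 to 1.32 FPKM), 0.368 FPKM in UVM11 of batch 1 (0.317 to 0.454 FPKM) and 0.124 FPKM in Elow47 (0.109 to 0.161 FPKM). The averages of batch 2 were 0.289 FPKM in UVM11-C1 (0.224 to 0.335 FPKM), 0.238 FPKM in UVM11-C9 (0.180 to 0.300 FPKM) and 2.10 FPKM in UVM11 (1.69 to 2.35 FPKM). The complemented strains overlapped each other and lay below every UVM11 culture of their batch.

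Cre01.g041752, a protein kinase gene, was low in every strain. It averaged 0.373 FPKM in UVM4, 0.552 FPKM in UVM11 of batch 1 and 0.0935 FPKM in Elow47, and in batch 2 0.0284 FPKM in UVM11-C1, 0.0400 FPKM in UVM11-C9 and 0.187 FPKM in UVM11. Both complemented strains were at less than the mean of Elow47.

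Cre05.g245500, a flagellar associated protein with ankyrin repeats, and Cre14.g630000, a ketoacid isomerase-like protein, had complemented strains that lay above every Elow47 culture. Cre05.g245500 averaged 0.778 FPKM in UVM4, 0.843 FPKM in UVM11 of batch 1 and 0.264 FPKM in Elow47, and 0.851 FPKM in UVM11-C1, 0.951 FPKM in UVM11-C9 and 2.35 FPKM in UVM11 of batch 2. UVM11-C1 thus overlapped the mutants of batch 1. UVM11-C9, with 0.900 to 1.03 FPKM, lay slightly above every culture of these, and UVM11 of batch 2 was the highest. Cre14.g630000 averaged 2.00 FPKM in UVM4, 1.65 FPKM in UVM11 of batch 1 and 0.559 FPKM in Elow47, and 1.47 FPKM in UVM11-C1, 1.20 FPKM in UVM11-C9 and 5.36 FPKM in UVM11 of batch 2. Here UVM11-C9, with 0.956 to 1.36 FPKM, lay below every culture of both mutants of batch 1 and above every culture of Elow47.

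Other members with large decreases have no annotated function here. Cre12.g554100, the member outside the list of the study with the largest joint decrease, had 11.8, 6.77, 11.6 and 10.3 FPKM in UVM4, 5.33, 8.43, 6.64 and 6.95 FPKM in the UVM11 cultures of batch 1, and 3.90, 1.86, 0.710 and 2.33 FPKM in Elow47. Batch 2 gave 0.988, 1.16 and 1.02 FPKM in the UVM11-C1 cultures, 1.04, 1.30 and 1.03 FPKM in UVM11-C9, and 16.6, 10.1 and 18.5 FPKM in UVM11. The mutant groups did not overlap Elow47, and the 6 complemented cultures lay within the range of Elow47 and below every mutant culture.

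Cre10.g450800 averaged 0.641 FPKM in UVM4, 0.392 FPKM in UVM11 of batch 1 and 0.0509 FPKM in Elow47, and 0.0845 FPKM in UVM11-C1, 0.0411 FPKM in UVM11-C9 and 1.92 FPKM in UVM11 of batch 2. Cre01.g042700 averaged 1.26 FPKM in UVM4, 0.602 FPKM in UVM11 of batch 1 and 0.194 FPKM in Elow47, and 0.298 FPKM in UVM11-C1, 0.613 FPKM in UVM11-C9 and 6.50 FPKM in UVM11 of batch 2. In both, UVM11 of batch 2 was the highest group and neither complemented strain overlapped it.

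At the other end were members that the complemented strains barely changed. Cre03.g198250 had 35.5, 28.9, 32.1 and 30.2 FPKM in UVM4, 25.5, 27.2, 19.3 and 20.8 FPKM in the UVM11 cultures of batch 1, and 2.02, 2.06, 1.62 and 1.93 FPKM in Elow47. In batch 2 it had 35.2, 22.7 and 18.6 FPKM in the UVM11-C1 cultures, 25.5, 25.4 and 26.1 FPKM in UVM11-C9, and 24.3, 29.9 and 28.2 FPKM in UVM11. The groups of batch 2 overlapped and all lay above every Elow47 culture, and the differences that admitted this gene were -0.15 for UVM11-C1 and -0.09 for UVM11-C9.

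Cre06.g278270, the member of highest mean, averaged 33.3 ± 3.23 FPKM in UVM4, 39.7 ± 1.76 FPKM in UVM11 of batch 1 and 14.8 ± 1.5 FPKM in Elow47 (SD, n = 4 each). Batch 2 averages were 45.6 ± 1.00 FPKM in UVM11-C1, 41.8 ± 1.94 FPKM in UVM11-C9 and 71.3 ± 4.52 FPKM in UVM11 (SD, n = 3 each). The complemented strains lay below UVM11 of their own batch but not below UVM11 of batch 1. Over all members, the mean of UVM11-C1 was above that of Elow47 in 53 and the mean of UVM11-C9 in 52, and both were at or below it in 7.

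**Figure D3:**
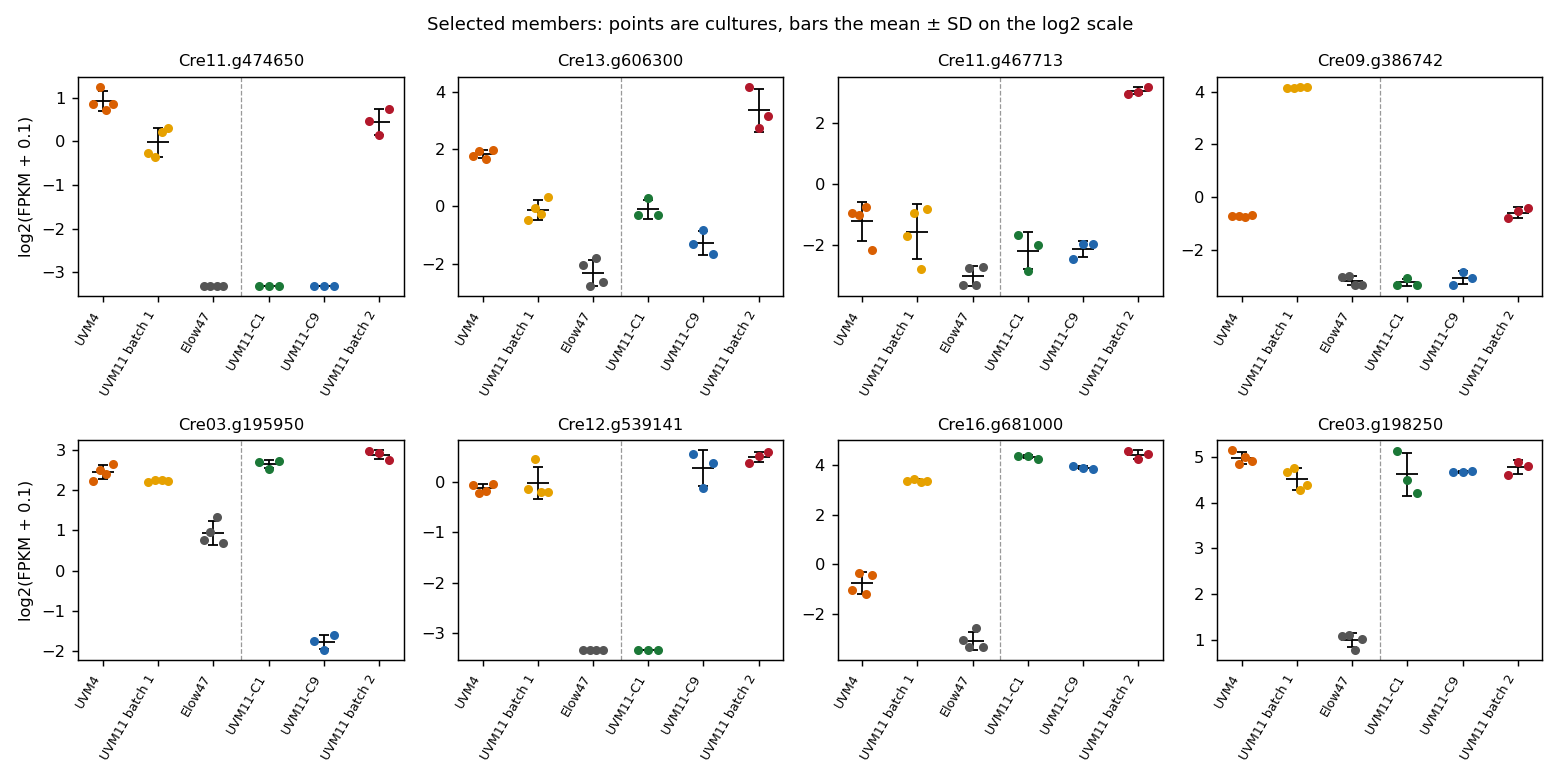
log2(FPKM + 0.1) of 8 members in each culture (points), with the mean ± SD on that scale (bars), by strain and batch (batch 1 left and batch 2 right of the dashed line). Cre11.g474650 is at the floor in all Elow47 and complemented cultures, Cre03.g195950 is low only in UVM11-C9 within batch 2 and Cre12.g539141 only in UVM11-C1, and Cre16.g681000 and Cre03.g198250 stay high in both complemented strains.

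Some members passed the rule narrowly. For UVM4 minus Elow47 the members nearest to the limit of 1 were Cre07.g326626 with 1.02, Cre12.g495959 with 1.04 and Cre02.g142026 with 1.05, and just outside were Cre04.g220750 with 0.99, Cre12.g503200 with 0.98 and Cre07.g336150 with 0.97. For UVM11 of batch 1 minus Elow47 they were Cre04.g217928 with 1.01, Cre13.g565290 with 1.05 and Cre17.g729101 with 1.06, against Cre04.g213950 with 0.82, Cre02.g100666 with 0.79 and Cre01.g005400 with 0.76. For UVM11-C1 minus UVM11 of batch 2 they were Cre12.g495959 with -0.02, Cre04.g217963 with -0.03 and Cre02.g114550 with -0.07, against Cre17.g731571 with 0.01, Cre17.g698500 with 0.02 and Cre03.g198224 with 0.04. For UVM11-C9 minus UVM11 of batch 2 they were Cre14.g628533 with -0.02, Cre17.g713726 with -0.07 and Cre03.g198250 with -0.09, against Cre07.g338750 with 0.01, Cre17.g717550 with 0.01 and Cre16.g681200 with 0.02.

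The thinnest evidence was that of Cre17.g713726, with 7 fragments summed over the UVM4 cultures, 9 over UVM11 of batch 1 and 1 over Elow47. Of the 9, most came from 1 culture with 1.15 FPKM, while the others had 0.178, 0.188 and 0 FPKM. Cre02.g142026 had 20, 21 and 7 fragments in the same groups. Its values of 0.730, 0.996, 0.123 and 0.307 FPKM in UVM4 overlapped those of 0.103, 0, 0.358 and 0.378 FPKM in Elow47, so that this gene is a member by its mean only. The other members of lowest mean were Cre14.g622200, Cre03.g146047 and Cre12.g495959. Cre03.g146047 averaged 0.276 FPKM in UVM4, 0.276 FPKM in UVM11 of batch 1 and 0.0731 FPKM in Elow47, but in UVM11 of batch 2 it had 0.0222, 0.0250 and 0 FPKM. It had 0.00853 FPKM in the UVM11-C1 cultures and 0.00772 FPKM in UVM11-C9, so that its decrease in the complemented strains is one of 1 fragment each from 2 fragments.

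The first comparison on which the rule set no limit was that of the mutants with each other. In UVM4 against UVM11 of batch 1, 4 members were called higher and 9 lower by limma with Benjamini-Hochberg adjustment over all 15425 genes, which is 19.4% of the members, whereas 0.856% of all tested genes were called. Of the 55 other genes raised in both mutants, 14.5% were called, so that such a share is not particular to the members. The median over the members was -0.04. Both groups had entered the rule through their difference from Elow47, so that a member may be high in either of them.

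The members called lower in UVM4 included 3 with a mean below 1 FPKM in UVM4 and above 10 FPKM in UVM11 of batch 1. Cre07.g326626 had 0.0650, 0.0230, 0.153 and 0.234 FPKM in UVM4 and 13.4, 13.9, 12.2 and 12.1 FPKM in the UVM11 cultures of batch 1, and was listed at 0 in all Elow47 cultures. It differed by -6.0 ± 0.21 on the log2 scale (SE, adjusted p = 1.62e-14) and passed the rule in UVM4 on these low values. Cre09.g386742 had 0.508, 0.515, 0.494 and 0.519 FPKM in UVM4 and 17.7, 17.8, 17.8 and 18 FPKM in the UVM11 cultures of batch 1, a difference of -4.88 ± 0.13 (adjusted p = 1.44e-16). In batch 1 the cultures of each mutant were almost identical in this gene.

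Cre16.g681000 had 0.388, 0.694, 0.337 and 0.641 FPKM in UVM4 and 9.88 to 10.8 FPKM in the UVM11 cultures of batch 1, a difference of -4.11 ± 0.17 (adjusted p = 1.08e-13). Cre12.g494150 averaged 0.234 FPKM in UVM4 and 1.79 FPKM in the UVM11 cultures of batch 1, which differed by -2.52 ± 0.26 (adjusted p = 7.78e-07). The groups of these genes did not overlap. The other 5 members called lower, among them Cre03.g204850, Cre16.g667550, Cre16.g670000 and Cre04.g217936, differed by -1.75 to -1.07. The call of Cre03.g204850 was lost when any of 8 of the 21 libraries was left out, each of the 4 UVM11 cultures of batch 1, UVM4 replicates 3 and 4 and UVM11 replicates 6 and 7 of batch 2, with adjusted p from limma between 0.010 and 0.0229. That of Cre04.g217936 was lost without UVM11 replicate 4 of batch 1, where the difference was -0.98.

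Higher in UVM4 were the genes of the 2′-5′ oligoadenylate synthase, Cre13.g606300, by 1.96 ± 0.27 (adjusted p = 3.48e-05), and of the pherophorin, Cre17.g729101, by 1.38 ± 0.15 (adjusted p = 2.27e-06). Cre02.g100700 had 2.38, 2.53, 2.09 and 2.61 FPKM in UVM4 and 0.474, 0.311, 0.370 and 0.259 FPKM in the UVM11 cultures of batch 1, a difference of 2.48 ± 0.21 (adjusted p = 2.78e-08). Cre04.g217928 averaged 2.13 FPKM in UVM4 and 0.586 FPKM in the UVM11 cultures of batch 1, a difference of 1.72 ± 0.19 (adjusted p = 1.52e-06). In all of these the UVM4 cultures lay above all UVM11 cultures of the batch.

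The second such comparison was that of the complemented strains with each other. In UVM11-C9 against UVM11-C1, 5 members were called higher and 8 lower, which is 19.4%, whereas 3.67% of all tested genes were called, 566 in number. Of the 55 other genes raised in both mutants, 45.5% were called, a larger share than of the members. The median over the members was 0. Both groups had entered the rule through their difference from UVM11 of batch 2. SRTA mRNA was lower in UVM11-C9 by 0.56 ± 0.11 on the log2 scale (adjusted p = 0.000363), and its part in these differences was not tested.

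Cre03.g195950 was low only in UVM11-C9 of the 3 strains of batch 2. It had 0.195, 0.156 and 0.230 FPKM in UVM11-C9 and 6.4, 5.69 and 6.55 FPKM in UVM11-C1, a difference of -4.43 ± 0.13 (SE, adjusted p = 1.13e-15). UVM11 of batch 2 had 7.72, 7.48 and 6.66 FPKM and Elow47 1.51 to 2.42 FPKM. UVM11-C9 thus had less than any Elow47 culture, while UVM11-C1 differed from UVM11 by -0.23 only.

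Cre12.g539141 had the opposite arrangement. It had 1.36, 0.813 and 1.20 FPKM in UVM11-C9, was listed at 0 in all 3 UVM11-C1 cultures and had 1.19, 1.32 and 1.40 FPKM in UVM11 of batch 2. The adjusted p of the difference was 6.57e-12. Cre02.g142807 had 0.326, 0.387 and 0.348 FPKM in UVM11-C9 and 0.0192, 0.00821 and 0.0165 FPKM in UVM11-C1, against 0.718 to 0.760 FPKM in UVM11 of batch 2. UVM11-C9 and UVM11-C1 differed by 1.98 ± 0.16 in this gene (adjusted p = 9.73e-09), a value that rests on 5 fragments in UVM11-C1 and was 0.42, no longer called, with a pseudocount of 1 and 3.91 with 0.01.

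Cre12.g541550 was called lower in UVM11-C9, with 2.27, 2.83 and 1.13 FPKM in UVM11-C9 and 13.2, 15.1 and 8.88 FPKM in UVM11-C1, a difference of -2.58 ± 0.28 (adjusted p = 4.88e-07). In UVM11 of batch 2 it had 76.0, 32.6 and 46.7 FPKM, more than in any other group, so that both complemented strains were lower, but UVM11-C1 was above UVM4 with 4.77 to 5.99 FPKM and above UVM11 of batch 1 with 3.84 to 5.49 FPKM. Cre06.g297900 had 0.373, 0.448 and 0.418 FPKM in UVM11-C9 and 1.77, 1.30 and 1.55 FPKM in UVM11-C1, a difference of -1.67 ± 0.13 (adjusted p = 7.52e-09). UVM11-C9 was below every Elow47 culture of that gene, of which the lowest had 0.566 FPKM.

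Of the smaller differences, Cre17.g732951 was higher in UVM11-C9 by 1.53 ± 0.30 (adjusted p = 0.00037). This value rests on 1 fragment in UVM11-C1. It ranged from 0.27 to 3.79 under 8 alternative settings, and the call was lost in 2 of them. Cre13.g606300 was lower by 1.18 on the log2 scale (adjusted p = 0.00391). Cre02.g100700 and Cre04.g217928 were higher by 1.09 and 1.00, close to the limit of 1. These 3 calls each depended on single libraries. That of Cre13.g606300 was lost without UVM11-C9 replicate 1 or 3 or a culture of UVM11-C1 (differences of -1.15, -0.97 and -0.98, adjusted p = 0.0134, 0.0269 and 0.0269). That of Cre02.g100700 was lost without UVM11-C9 replicate 1 or either of 2 cultures of UVM11-C1 (0.88 to 1.00, just below the limit at the upper end), and that of Cre04.g217928 without UVM11-C9 replicate 2 or either of 2 cultures of UVM11-C1 (0.92 to 0.96).

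The third comparison was of the same mutant in the 2 batches. In UVM11 of batch 2 against UVM11 of batch 1, 16 members were called higher and 11 lower, which is 40.3%, whereas 5.23% of all tested genes were called, 4.15% higher and 1.08% lower. Of the 55 other genes raised in both mutants, 36.4% were called. The median over the members was 0.45, against 0.00 over all tested genes. Both groups had entered the rule on their high side, UVM11 of batch 1 over Elow47 and UVM11 of batch 2 over the complemented strains. Of the 18 members in the list of the study 15 were called, 11 higher and 4 lower, and that list had been chosen on these cultures.

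The largest increase was in Cre11.g467713. It had 7.63, 8.09 and 8.96 FPKM in UVM11 of batch 2 and 0.205, 0.418, 0.0435 and 0.460 FPKM in UVM11 of batch 1, a difference of 4.63 ± 0.39 (adjusted p = 8.43e-09). UVM4 had 0.122 to 0.487 FPKM and the complemented strains 0.0363 to 0.212 FPKM, so that only UVM11 of batch 2 was high in this gene. Cre13.g606300 differed by 3.48 ± 0.29 (adjusted p = 6.35e-09), Cre12.g541550 by 3.39 ± 0.26 (adjusted p = 2.47e-09) and Cre01.g042700 by 3.21 ± 0.24 (adjusted p = 1.36e-09).

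The largest decrease was in Cre09.g386742, which had 0.471, 0.597 and 0.647 FPKM in UVM11 of batch 2 and 17.7 to 18 FPKM in UVM11 of batch 1, a difference of -4.75 ± 0.14 (adjusted p = 1.54e-15). Its level in UVM11 of batch 2 was near that in UVM4 of 0.494 to 0.519 FPKM. Cre07.g326626 had 2.53, 2.73 and 3.0 FPKM in UVM11 of batch 2 and 12.1 to 13.9 FPKM in UVM11 of batch 1, a difference of -2.19 ± 0.23 (adjusted p = 1.4e-07). Cre16.g670000 fell by 2.41 on the log2 scale (adjusted p = 1.17e-09) and Cre04.g217936 by 1.76 (adjusted p = 2.93e-07). The decrease of the complemented strains in each of these genes was therefore measured from a level of UVM11 that was not that of batch 1.

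**Figure D4:**
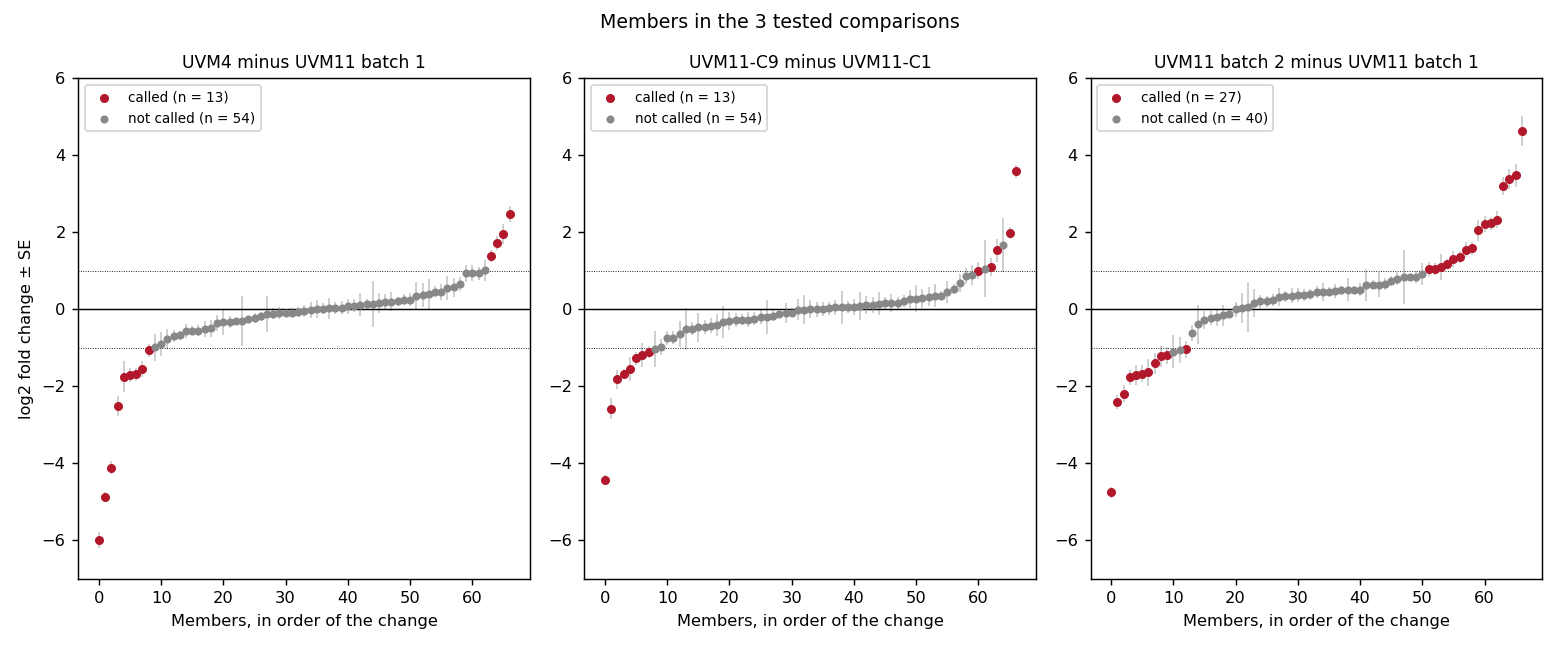
log2 fold change ± SE of the 67 members, in order of the change, for UVM4 minus UVM11 of batch 1, UVM11-C9 minus UVM11-C1 and UVM11 of batch 2 minus UVM11 of batch 1. Red points were called by limma (absolute log2 fold change above 1 and adjusted p below 0.01), which are 13, 13 and 27 members, and most of the others lie within the dotted lines at 1 and -1.

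The calls can be counted by class, beside 0.856% of all tested genes called between the mutants, 3.67% between the complemented strains and 5.23% between the batches of UVM11. Of the 26 members below -1 in both complemented strains, 9 were called between the mutants, 5 between the complemented strains and 19 between the batches of UVM11. Of the 14 below -1 in only 1 complemented strain, 1, 8 and 2 were called in the same comparisons, and of the 27 others 3, 0 and 6. The classes were cut on the decreases in the 2 complemented strains, and the comparison of these strains is the difference between those decreases. A member below -1 in only 1 of them was thus more likely to be called there, and nothing can be read from those counts. UVM11 of batch 2 is shared by the decreases and by the comparison of batches, so that these counts are not independent of the classes either. The difference between classes was not tested.

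Position in the genome was not used by the rule. Coordinates come from RefSeq's gene table for assembly version 5.5, in which 66 members lie on numbered chromosomes and 1 on an unplaced scaffold. Chromosome 4 held 9 members among 470 tested genes, or 1.91%, whereas the whole set held 0.434%, and on the other chromosomes the share was 0% to 0.733%. Of the 66 members 16 lay within 100 kb of another member (24.2%), and of 52 other raised genes on numbered chromosomes 22 lay that near to another of these (42.3%). No such share was computed for sets of tested genes of the same size, so that clustering cannot be read from these shares.

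On chromosome 4, 8 members lay between 470102 and 814172, a stretch of 344 kb with 32 tested genes. The 24 other tested genes in it had a median difference of -0.03 in UVM4 and -0.02 in UVM11 from Elow47. The far end of the stretch, from 741576 to 814172, held 5 members among 7 tested genes: Cre04.g217962, Cre04.g217963, Cre04.g217969, Cre04.g217971 and Cre04.g217973. This stretch, its far end and the stretch of chromosome 16 below each begin and end with a member and were chosen once the members were known. Their density of members was thus raised by the choice and was not tested. Cre04.g217971, named here for its place and after its values were seen, averaged 1.33 FPKM in UVM4, 1.29 FPKM in UVM11 of batch 1 and 0.10 FPKM in Elow47. Its averages in batch 2 were 1.56 FPKM in UVM11-C1, 1.30 FPKM in UVM11-C9 and 1.72 FPKM in UVM11. The next gene beyond, Cre04.g217974, was raised by 3.87 in UVM4 and 3.98 in UVM11 but was higher by 1.05 in UVM11-C1 than in UVM11, and so is no member.

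The members of that far end differed in batch 2. Cre04.g217963 had 2.87, 2.92 and 2.10 FPKM in the UVM11-C1 cultures, 1.60, 2.35 and 1.57 FPKM in UVM11-C9, and 2.65, 2.37 and 3.01 FPKM in UVM11. All of these were above the 1.11 to 1.37 FPKM of UVM11 in batch 1. Its neighbour Cre04.g217962 had 0.758, 0.653, 0.390 and 0.371 FPKM in UVM4 and 0.423, 0.782, 0.299 and 0.188 FPKM in the UVM11 cultures of batch 1, but at most 0.160 FPKM in any culture of batch 2. In the test of batches they went opposite ways, Cre04.g217963 by 1.06 ± 0.16 (adjusted p = 1.13e-05) and Cre04.g217962 by -1.63 ± 0.35 (adjusted p = 0.000494), but without UVM11 replicate 7 of batch 2 the difference of Cre04.g217963 was 0.97 and no longer called. The difference of Cre04.g217962 rests on 4 fragments in UVM11 of batch 2. It ranged from -3.09 to -0.40 under 7 alternative settings, and its call was lost in 2 of them.

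**Figure D5:**
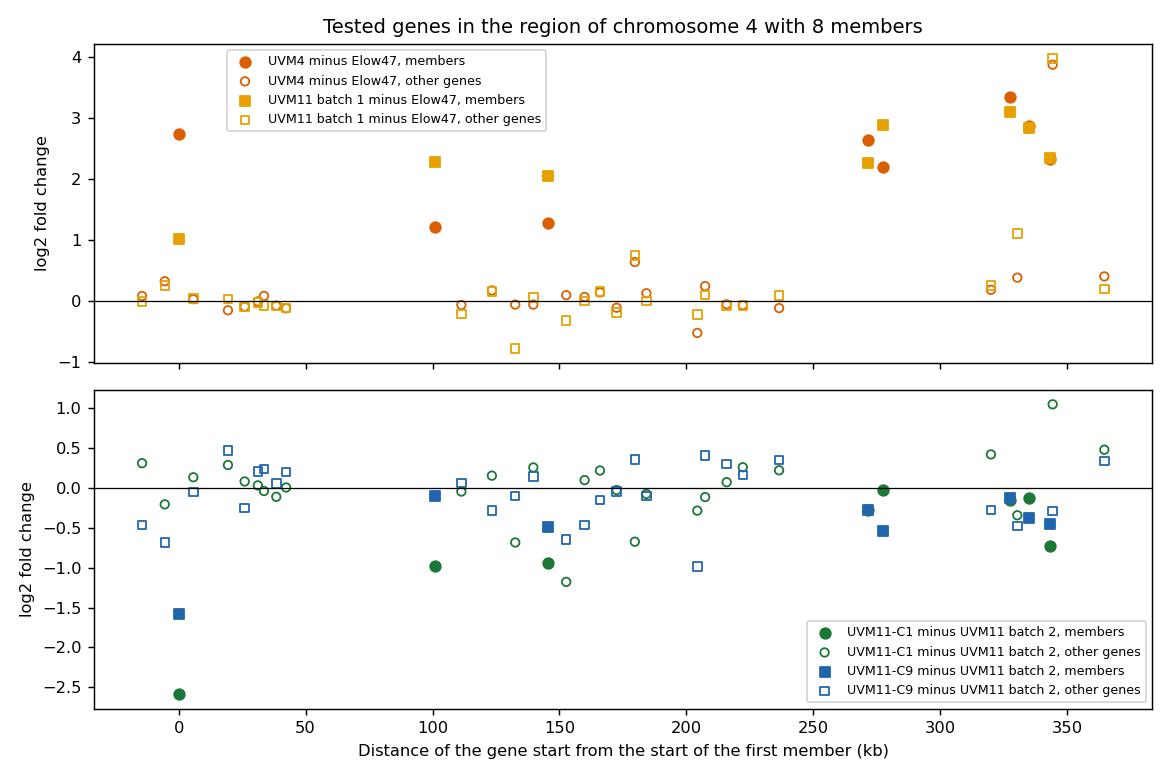
Differences on the log2(FPKM + 0.1) scale of tested genes in and around the stretch of chromosome 4 with 8 members, by the distance in kb of the gene start from the first member, Cre04.g217928. The upper panel gives UVM4 and UVM11 of batch 1 minus Elow47, and the lower panel UVM11-C1 and UVM11-C9 minus UVM11 of batch 2; filled symbols are members and open symbols other genes. Most open symbols in the upper panel lie near 0 between the members, and in the lower panel only Cre04.g217928 is below -1 in both strains among the members.

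On chromosome 16, 3 members lay within 30.9 kb, from 5421362 to 5452212, with 4 other tested genes between them. Cre16.g681250 had 8.16, 11, 8.69 and 10.2 FPKM in UVM4, 13.5, 13.6, 14.4 and 14.2 FPKM in the UVM11 cultures of batch 1, and 1.76, 2.17, 4.71 and 2.04 FPKM in Elow47. In batch 2 it averaged 14.4 FPKM in UVM11-C1, 15.1 FPKM in UVM11-C9 and 17.9 FPKM in UVM11. Cre16.g681251, next to it, averaged 7.17 FPKM in UVM11-C1, 8.37 FPKM in UVM11-C9 and 9.77 FPKM in UVM11 of batch 2, and 1.62 FPKM in Elow47. All 3 members of the region stayed far above Elow47 in both complemented strains.

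Cre16.g681000, at the other end of the same stretch, had 20.3, 20.3 and 18.9 FPKM in the UVM11-C1 cultures, 15.4, 14.7 and 14.1 FPKM in UVM11-C9, and 23.4, 18.7 and 21.7 FPKM in UVM11 of batch 2. Between the mutants, 4 of the 7 tested genes of the stretch were called lower in UVM4, where 0.467% of all tested genes were. Beside Cre16.g681000 these were Cre16.g681050 by -3.40, Cre16.g681200 by -2.41 and Cre16.g681051 by -1.42, which are no members. Cre16.g681250 and Cre16.g681251 differed by -0.56 and -0.55 and were not called.

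On chromosome 9 the adjacent members Cre09.g397364 and Cre09.g397401, from 4807515 to 4814863, were both low in UVM11-C9. Cre09.g397364 had 0.0571, 0.0738 and 0.0107 FPKM in UVM11-C9 and 0.636, 0.423 and 0.243 FPKM in UVM11-C1, a difference of -1.82 ± 0.25 (adjusted p = 6.38e-06). Cre09.g397401 had 0, 0.0286 and 0.0145 FPKM in UVM11-C9 and 0.192, 0.328 and 0.192 FPKM in UVM11-C1, a difference of -1.54 ± 0.31 (adjusted p = 0.000442). The latter rests on 3 fragments in UVM11-C9. Under 8 alternative settings it ranged from -3.50 to -0.28, and that of Cre09.g397364 from -3.08 to -0.44. Each call was lost in 2 of these settings. The groups did not overlap in either gene.

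The genes next to the pair on either side, Cre09.g397327 and Cre09.g397438, were not called in UVM11-C9 against UVM11-C1 and averaged 1.23 and 1.13 FPKM in UVM11-C9, 1.11 and 1.57 FPKM in the UVM11-C1 cultures, and 1.10 and 1.36 FPKM in UVM11 of batch 2. Further along on 1 side, genes that were not raised in the mutants were low in UVM11-C9. Cre09.g397512, which starts 21.7 kb from the start of the first of the pair, averaged 1.03 FPKM in UVM11-C9, 4.52 FPKM in the UVM11-C1 cultures and 5.24 FPKM in UVM11 of batch 2. Cre09.g397549 and Cre09.g397586, the next genes, were listed at 0 in all UVM11-C9 cultures and averaged 58.2 and 3.31 FPKM in the UVM11-C1 cultures and 57.0 and 3.22 FPKM in UVM11 of batch 2. In UVM4, UVM11 of batch 1 and Elow47, Cre09.g397549 averaged 75.0, 72.6 and 77.5 FPKM. The part of this stretch in the decrease of the 2 members was not tested. These genes were named after their values were seen.

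On chromosome 3, Cre03.g198236 and Cre03.g198250 were neighbours. Cre03.g198236 had 0.565, 0.366, 0.383 and 0.394 FPKM in UVM4, 0.494, 0.466, 0.362 and 0.319 FPKM in the UVM11 cultures of batch 1, and at most 0.0116 FPKM in Elow47. In batch 2 it averaged 0.531 FPKM in UVM11-C1, 0.422 FPKM in UVM11-C9 and 0.554 FPKM in UVM11. Its other neighbour, Cre03.g198224, was listed at 0 in Elow47 and averaged 0.288 FPKM in UVM4 and 0.384 FPKM in the UVM11 cultures of batch 1, and was left out by a difference of 0.04 in UVM11-C1.

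Few genes beside the members were called against Elow47, though a larger share of them than of all tested genes was. Of 88 tested genes next to a member that were no members themselves, 3 (3.41%) were above 1 in both mutants, where 0.791% of all tested genes were. In UVM4 against Elow47, 5 of these neighbours were called, 4 higher and 1 lower, or 5.68%, where 1.12% of all tested genes were. In UVM11 of batch 1 against Elow47, 6 were called, 5 higher and 1 lower, or 6.82%, where 1.4% were. Their median differences were 0.03 and 0.04. The neighbours called higher lay beside Cre02.g100700, Cre03.g198236, Cre16.g681250, Cre16.g681000 and the members at the far end of the chromosome 4 stretch.

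Other neighbours went the opposite way. Cre07.g353100, 320 bases from the member Cre07.g353050, was called lower in UVM11 by 1.59 on the log2 scale, whereas Cre07.g353050 averaged 0.705 FPKM in UVM4, 2.51 FPKM in UVM11 of batch 1 and 0.178 FPKM in Elow47. Cre08.g368650, beside the member Cre08.g368600, was called lower in UVM4 by 2.93, whereas Cre08.g368600 averaged 2.56 FPKM in UVM4, 2.65 FPKM in UVM11 of batch 1 and 0.0162 FPKM in Elow47. The spans of 2 members overlap that of a neighbour. The use of strand in the authors' counting is not given in the sources used here. Fragments of overlapping genes may therefore not be told apart. Cre01.g050624, of 3816 bases, overlaps Cre01.g050616 (gap -3796 bases), which differed from Elow47 by -2.34 in UVM4 and -1.89 in UVM11. The member differed by 1.28 and 1.58. From UVM11 of batch 2, UVM11-C1 differed by 1.57 in this neighbour and -1.41 in the member, and UVM11-C9 by -0.34 and -0.35. None of these differences was called. Cre03.g201400, overlapped by Cre03.g201417, differed from Elow47 by 0.11 and -0.10. A shift of fragments between such genes was not tested. These genes were named after their values were seen.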

How the data were processed

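The authors sequenced RNA of 21 cultures, aligned the reads with STAR (version 2.4.0j) and deposited one FPKM value for each of 17741 gene models and culture, computed with Cuffdiff (version 2.2.1). The labels name a TruSeq Stranded Total RNA kit, whereas the study's methods give poly(A) selection and a KAPA mRNA kit, and which was used was not settled here. Columns were matched to strains by the labels, except that those of UVM11-C1 were recognised by a lower-case letter in their names, and UVM11 replicates 5 to 7 were taken as batch 2 from their numbers and the design. No pair of libraries was identical, and the depth in reads is unknown, so that precision is given as the spread between cultures and intervals for counting error were not computed.

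No scaling was added to FPKM, and 0.1 was added before taking log2. The 15425 genes with a mean above 0.1 FPKM were fitted with limma (version 3.58.1) in R (version 4.3.3), as a single model of 6 groups (strain within batch), with a variance trend on the mean and 15 degrees of freedom left. Tests are two-sided, p-values were adjusted over all tested genes by Benjamini-Hochberg, and 2316 genes were not tested. The script was checked on simulated data. Fragments were recovered from the steps of FPKM with relative depths from 619 genes, of whose low values 97.6% lay within 0.1 of a whole step. Tables used Python (version 3.11.15), pandas (version 2.3.3), numpy (version 2.4.6) and matplotlib (version 3.10.9). Gene positions came from RefSeq, whose table gave no symbol for these genes. Sequences were not used here.

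The members, lists and classes were chosen with earlier results of these data known. Named are the 12 members whose smallest of the 4 differences is largest, at most 12 members with an annotated function, the 4 called members of largest change in each direction of each tested comparison, the 3 members of highest and of lowest mean, the 3 genes on each side of each limit, at most 10 neighbouring members by mean FPKM, and SRTA. Others are marked in the text. The alternatives were other pseudocounts and filters, quantile normalization, models of fewer groups, another threshold or test, a replicate block, and leaving out each library.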

Additional observations from a re-analysis of the deposited data

Results flagged for a closer look

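Within groups of 4 cultures, 1 culture stood far from the other 3 in 12 of the 131 groups looked at, by Dixon's limit. Its rate of about 1 in 20 groups by chance holds for normally distributed values. A group with 1 culture above 0 and the other 3 at 0 always passes it, so that this rate does not apply to such low values. In 4 of the 12 the value was 1 fragment in an Elow47 culture where the others had none, with 0.0142 FPKM in Cre02.g100700, 0.0503 FPKM in Cre12.g494150, 0.205 FPKM in Cre17.g713726 and 0.0368 FPKM in Cre17.g732951. The highest Elow47 culture of Cre14.g622200 had 0.0386 FPKM, with the other 3 listed at 0. Elow47 also had a highest culture of 4.71 FPKM in Cre16.g681250, where the other 3 had 1.76 to 2.17 FPKM, and of 0.161 FPKM in Cre17.g729101, and a lowest culture of 0.419 FPKM in Cre14.g630000. A highest culture of UVM11 in batch 1 had 1.25 FPKM in Cre12.g539141 and 1.15 FPKM in Cre17.g713726, and the lowest of that group had 37.1 FPKM in Cre06.g278270. In UVM4 the highest culture had 0.565 FPKM in Cre03.g198236.

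The difference from Elow47 was not the same in the 2 mutants, by limma's test of UVM4 against UVM11 of batch 1, in 12 of the members named. On the log2 scale UVM4 was higher by 2.48 in Cre02.g100700, 1.96 in Cre13.g606300, 1.72 in Cre04.g217928 and 1.38 in Cre17.g729101. The difference was -6.0 in Cre07.g326626, -4.88 in Cre09.g386742, -4.11 in Cre16.g681000, -2.52 in Cre12.g494150, -1.75 in Cre03.g204850, -1.69 in Cre16.g670000, -1.55 in Cre16.g667550 and -1.07 in Cre04.g217936.

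The difference from UVM11 was not the same in the 2 complemented strains, by limma's test of UVM11-C9 against UVM11-C1, in 11 of the members named. UVM11-C9 was higher by 1.98 in Cre02.g142807, 1.53 in Cre17.g732951, 1.09 in Cre02.g100700 and 1.00 in Cre04.g217928. In Cre12.g539141, which was listed at 0 in UVM11-C1, the fitted value of 3.58 depends on the pseudocount and is no fold change. The difference was -4.43 in Cre03.g195950, -2.58 in Cre12.g541550, -1.82 in Cre09.g397364, -1.67 in Cre06.g297900, -1.54 in Cre09.g397401 and -1.18 in Cre13.g606300.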

How the results depend on the processing

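The number of members depended on the pseudocount and the filter. The rule found 14 genes with a pseudocount of 1, 102 with 0.01 and 27 with a mean above 1 FPKM, where it found 67, and it found 68 with no filter and 55 after quantile normalization. Leaving out single libraries gave 62 to 73 genes. Between the mutants 13 members were called, but 7 with a pseudocount of 1, 6 with a mean above 1 FPKM, where 27 members were left, and 5 by limma's treat test against a log2 fold change of 1. Between the complemented strains 13 were called, but 3, 6 and 5 under the same alternatives, and between the batches of UVM11 27 were called, but 13, 11 and 10. By the treat test the calls over all tested genes were fewer as well, at 0.227%, 0.525% and 1.3% in the 3 comparisons. For the other alternatives that share is not given, so that nothing particular to the members can be read from these drops. Leaving out single libraries gave 12 to 14, 11 to 14 and 24 to 28 calls. Models of fewer groups, a threshold of 0.05, no filter, a pseudocount of 0.01 and quantile normalization kept each count within 1.5 times. Of 46 fold changes named in these comparisons none reversed under any alternative and 18 stayed called under all of them. The call of Cre12.g554100 between the batches was lost in 16 of 21 fits without a single library, and that of Cre16.g681000 without UVM11 replicate 5 of batch 2 (0.98).

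Same-numbered cultures of batch 1 did not deviate together, with correlations from -0.14 to 0.15. With the number as a replicate block, 12 members were called between the mutants in place of 13. Between the complemented strains, paired by the number that ends the column name, the correlations were 0.03 to 0.09, and with that replicate block 13 members were called as without it, while the call of Cre02.g100700 was lost (adjusted p = 0.0582). Depth limits the low members, since for 17 of them at most 3 fragments were recovered over the Elow47 cultures.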
